A study of Mus musculus with 8 samples.

Results

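Lymphocyte genes were examined in whole liver RNA as a set of 29 genes out of 40838 rows of the deposited count table. The genes were taken by symbol as known markers of lymphocytes: 12 of T cells, 8 of natural killer (NK) and cytotoxic cells, 8 of B and plasma cells, and Ptprcap, which T, NK and B cells share. They were chosen with earlier results of these data known, so their shares beside those of all genes describe and do not test. All 29 were found in the table. Their level was low throughout: 20 of the 29 had a mean under 1 CPM (counts per 1000000 counts of the library, with library totals scaled by TMM), and the 29 together made up 20.4 to 43.8 CPM of a liver library.

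The 8 libraries were made from liver RNA of C57BL/6 mice, an inbred laboratory strain, and both groups had eaten a diet that causes nonalcoholic steatohepatitis (NASH) for 16 weeks. After 7 of those weeks they were given an adeno-associated virus (AAV) with a TBG promoter, which is active in hepatocytes, in front of eGFP as the control (4 libraries) or of Lpcat3 (4 libraries), and the diet went on for 9 weeks more. Lpcat3 encodes an enzyme that puts polyunsaturated fatty acids into membrane phospholipids, and the promoter that drives it is one of hepatocytes, not of lymphocytes. No group without the diet or without virus was analysed here, and the labels give neither age nor sex.

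T cells recognise antigen through a receptor whose CD3 chains pass the signal to the kinases Lck and Zap70. NK cells and cytotoxic T cells kill target cells with perforin and granzymes. B cells sense antigen with surface antibody joined to CD79 chains, and plasma cells, which develop from them, secrete antibody. All of these cells reside in or enter the liver, and their number and kind change in steatohepatitis.

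The library totals ran from 22433625 to 25651874 counts. Lpcat3 itself was at 158, 148, 133 and 173 CPM in eGFP libraries 1 to 4 and at 274, 401, 465 and 311 CPM in Lpcat3 libraries 1 to 4, with no overlap of the groups. Reads of the vector may be counted with those of the mouse gene, which was not checked. The titles carry code numbers of unstated meaning, spread unevenly: 1290 or 1317 stands on 3 of the 4 eGFP and 1 of the 4 Lpcat3 libraries, and 1344 or 1345 on the others. Each difference given within codes therefore has a single library on 1 side. That library is Lpcat3 1 within codes 1290 and 1317 and eGFP 4 within codes 1344 and 1345. Both libraries numbered 3 stand at the ends of the hepatocyte marker levels, with the lowest sum in eGFP 3 (42880 CPM) and the highest in Lpcat3 3 (88710 CPM). Whether each library is a different mouse is not stated in the labels, and the p-values therefore rest on the spread between libraries, which may be technical. In bulk liver RNA, fewer cells of a type and less RNA per cell cannot be told apart.

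Promoters are printed for Pou2f2 and Prf1, the 2 tested members whose libraries did not overlap between the groups, and for Cd3e, the CD3 chain with the highest mean level. Each line gives the 250 bases before the RefSeq start in the mouse build GRCm38.p6, which is not the authors' build, read 5′ to 3′ on the gene's strand. They lie at chr7:25132461-25132710 on the minus strand (Pou2f2), chr10:61297586-61297835 on the plus strand (Prf1) and chr9:45009612-45009861 on the minus strand (Cd3e). Capitals mark 2 short motifs on either strand, so that some are shown as their reverse complement. One is the RUNX core TGTGGT, which T and NK cell regulators of the RUNX family bind. The other is CAGGAAG, a motif bound by factors of the ETS family, which has members in every lymphocyte lineage.
Pou2f2: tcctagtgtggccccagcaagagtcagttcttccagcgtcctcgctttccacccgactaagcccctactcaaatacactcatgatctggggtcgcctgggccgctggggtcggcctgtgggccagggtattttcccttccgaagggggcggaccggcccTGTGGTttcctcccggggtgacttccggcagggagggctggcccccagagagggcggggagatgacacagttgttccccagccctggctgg
Prf1: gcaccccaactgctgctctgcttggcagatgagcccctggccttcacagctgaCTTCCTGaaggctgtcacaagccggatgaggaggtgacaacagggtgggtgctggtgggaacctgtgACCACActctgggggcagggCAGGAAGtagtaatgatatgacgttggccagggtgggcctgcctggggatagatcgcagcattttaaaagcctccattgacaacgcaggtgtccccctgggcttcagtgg
Cd3e: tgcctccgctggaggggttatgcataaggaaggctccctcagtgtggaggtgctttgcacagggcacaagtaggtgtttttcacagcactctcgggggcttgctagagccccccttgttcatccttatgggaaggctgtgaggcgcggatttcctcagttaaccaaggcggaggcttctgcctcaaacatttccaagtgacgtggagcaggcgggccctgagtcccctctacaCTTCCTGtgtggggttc

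RefSeq promoter windows of 300 bases (250 before the start to 50 after it) were at hand for 19 of the 29 members. On either strand, TGTGGT was found in 10 of the 19 (52.6%), against 18.9% of 27025 genes, and CAGGAAG in 8 of the 19 (42.1%), against 14.8%. The octamer ATGCAAAT, the motif bound by the protein that Pou2f2 encodes, was found in 0 of the 19 and in 1.97% of all genes. Lck, Nkg7, Prf1, Xcl1 and Zap70 held both TGTGGT and CAGGAAG. These matches describe the letters in a short window and were not tested as binding sites.

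The comparison of Lpcat3 with eGFP asked whether lymphocyte transcripts differed between livers with raised hepatic Lpcat3 and control livers on the same diet. No member passed the test across all genes. Of the 29 members, 23 had a lower mean CPM in the Lpcat3 group. They were 9 of 12 T cell genes, 6 of 8 NK and cytotoxic genes and 8 of 8 B and plasma cell genes, and not Ptprcap. Some of these means were nearly equal, with Mzb1 at 0.0690 and 0.0680 CPM and Cd79a at 0.692 and 0.652 CPM in the eGFP and Lpcat3 groups. The share of lower means was not computed over all genes. Of the log2 fold changes of all tested genes, 51.5% were negative. Pou2f2, a transcription factor of B cells that macrophages also express, showed the largest difference among the tested members, 2.60-fold lower in the Lpcat3 group. In summed level, the eGFP libraries varied more among themselves than the Lpcat3 libraries did. The 29 members summed to 34.0 ± 11.3 CPM in the eGFP group and 23.2 ± 1.89 CPM in the Lpcat3 group (SD, n = 4 each). The sum of eGFP 2, at 22.1 CPM, lay inside the Lpcat3 range of 20.4 to 24.8 CPM. Without Pou2f2 the other 28 members summed to 25.3 ± 7.87 CPM in the eGFP group and 19.8 ± 1.96 CPM in the Lpcat3 group. In that sum the Lpcat3 range was 17.1 to 21.3 CPM. There eGFP 2, at 16.5 CPM, lay below this range and eGFP 4, at 20.8 CPM, inside it.

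Of the 29 members, 21 had enough counts to be tested. The untested 8 were Cd3d, Cd3g, Cd8b1, Cd5, Cd6, Gzma, Xcl1 and Mzb1. In edgeR's quasi-likelihood test 0 of 21 members had an adjusted p under 0.05 (range 0.564 to 0.980), against a background of 0.00573% of 17438 genes, which is 1 gene. At an unadjusted p under 0.05 there were 3 members (Cd2, Prf1 and Pou2f2), against 8.48% of all genes tested. DESeq2 called 1 member, Pou2f2, where it called 0.236% of 19085 genes. Groups without overlap, with all Lpcat3 libraries below all eGFP libraries, were seen in 2 of 21 members, Pou2f2 and Prf1, against 2.24% of all genes. Because the members were chosen with earlier results known, these shares are no test of the set. An adjusted p above the threshold does not show that a member did not differ.

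Of the 21 tested members, 17 had a negative log2 fold change (Lpcat3 over eGFP), with a median of -0.43. Over all tested genes 51.5% were negative, with a median of -0.0065. Without TMM scaling, on library totals alone, 76.9% of all genes were negative with a median of -0.13, and 19 of the 21 members were. A fit with every code number as its own term left 15 negative members, the lowest number among the settings that kept all 21.

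**Figure D1:**
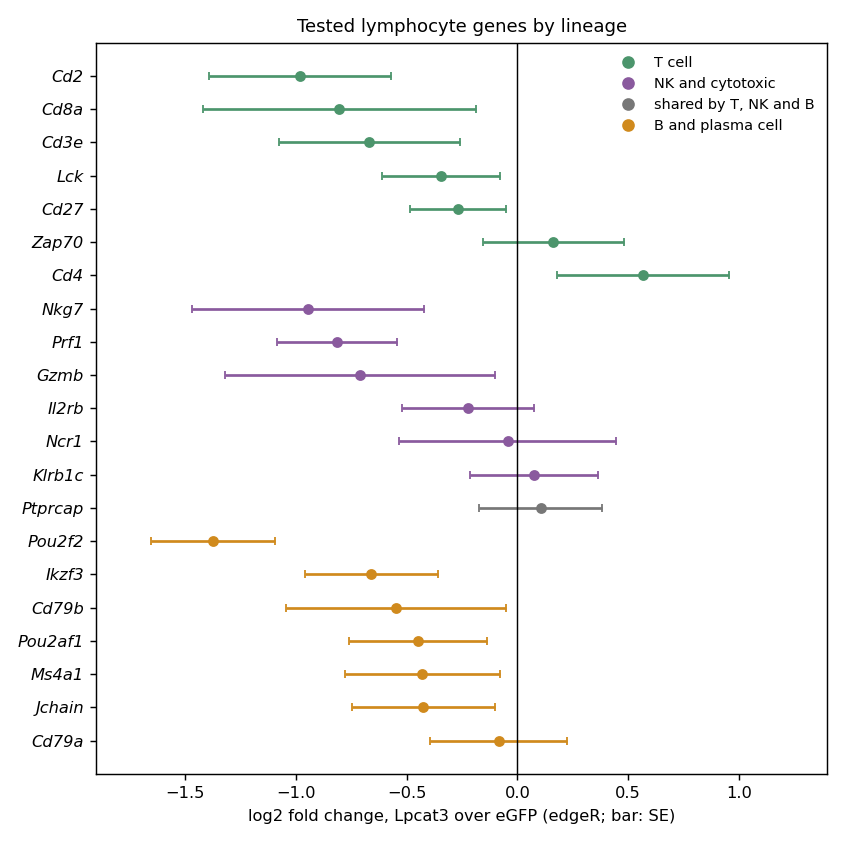
Log2 fold change (Lpcat3 over eGFP, edgeR) of the 21 tested lymphocyte genes, by lineage; points are estimates and bars their SE, and the vertical line marks 0. 17 of 21 points lie left of 0, Pou2f2 lies farthest left at -1.38, and Cd4, at 0.57, lies farthest right.

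Genes of the T cell receptor complex were low and uneven across the eGFP libraries. Cd3e, a CD3 signalling chain, was at 1.73, 0.531, 1.78 and 0.867 CPM in eGFP 1 to 4 and at 0.861, 0.442, 0.959 and 0.835 CPM in Lpcat3 1 to 4. Only eGFP 1 and eGFP 3 stood above the Lpcat3 range. The log2 fold change was -0.67 (SE 0.41; edgeR adjusted p = 0.650), and -0.43 without eGFP 3. The partner chain Cd3g had means of 0.613 and 0.270 CPM in the eGFP and Lpcat3 groups and Cd3d 0.143 and 0.207 CPM, from totals of 88 and 34 counts over all 8 libraries.

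Of the coreceptor genes, Cd8a had a lower and Cd4 a higher mean in the Lpcat3 group, and neither passed the test. Cd8a, which marks cytotoxic T cells, was at 2.08, 0.327, 2.19 and 0.496 CPM in the eGFP group and at 1.12, 0.795, 0.671 and 0.358 CPM in the Lpcat3 group. The eGFP values fell into a high pair and a low pair, with all 4 Lpcat3 libraries inside the eGFP range (log2 fold change -0.80, SE 0.62; edgeR adjusted p = 0.688). The fold change was -0.41 without eGFP 3, -0.47 without eGFP 1 and -0.16 in a fit that had the code division (1290 and 1317 against 1344 and 1345) as a term. Cd8a rested on 8 to 59 counts per library: the 8 counts of eGFP 2 have an exact Poisson 95% interval of 3.45 to 15.8 and the 59 of eGFP 3 one of 44.9 to 76.1, which cover counting error only. Its partner chain Cd8b1 ranged from 0.122 to 0.705 CPM in the eGFP group, with the same high pair, and from 0.240 to 0.318 CPM in the Lpcat3 group. Cd4, the helper T cell coreceptor, which some dendritic cells also carry, was at 1.30, 0.531, 1.04 and 0.661 CPM in the eGFP group and at 0.732, 1.28, 2.21 and 1.07 CPM in the Lpcat3 group. Only Lpcat3 3 lay above the eGFP range, and the log2 fold change was 0.57 (SE 0.39; edgeR adjusted p = 0.667). Without Lpcat3 3 it was 0.22, and with every code number as its own term 0.12.

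Adhesion and costimulation genes of T cells were lower on average without passing the test. Cd2, an adhesion receptor of T and NK cells, was at 0.825, 0.572, 1.49 and 0.454 CPM in the eGFP group and at 0.559, 0.442, 0.288 and 0.398 CPM in the Lpcat3 group. The only overlap was between eGFP 4 and Lpcat3 1 (log2 fold change -0.98, SE 0.41; edgeR adjusted p = 0.582; -0.54 without eGFP 3). Cd27, a costimulatory receptor of the TNF receptor family, was even across libraries, at 1.22, 1.06, 1.52 and 1.20 CPM against 1.03, 1.19, 0.767 and 1.15 CPM. Its log2 fold change was -0.27 (SE 0.22; edgeR adjusted p = 0.702), and with eGFP 3 and Lpcat3 3 both left out it was -0.042. The surface receptors Cd5 and Cd6, which tune T cell receptor signalling, had means of 0.361 and 0.486 CPM in the eGFP group and of 0.170 and 0.285 CPM in the Lpcat3 group.

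Of the 2 kinases of T cell receptor signalling, Zap70 had a slightly higher mean in the Lpcat3 group and Lck a lower one, both with overlapping groups. Zap70 was at 2.87, 2.21, 1.56 and 3.39 CPM in the eGFP group and at 1.98, 3.05, 4.32 and 1.91 CPM in the Lpcat3 group. The log2 fold change was 0.16 (SE 0.32; edgeR adjusted p = 0.877), and the sign turned to -0.29 without both libraries numbered 3. In eGFP 3, where Cd3e and Cd8a were at their highest, Zap70 was at its lowest. Per kilobase of transcript Zap70 had the highest level of all 29 members, 1.18 CPM per kb, against 0.684 for Cd3e and 0.394 for Lck. Lck was at 0.654 to 1.22 CPM in the eGFP group and 0.575 to 0.972 CPM in the Lpcat3 group (log2 fold change -0.34, SE 0.27; edgeR adjusted p = 0.690).

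Of the 7 tested T cell genes, 5 had a negative log2 fold change (5 or 6 in the alternatives that kept all 7), with a median of -0.34. The T cell score, the mean log2 CPM of these 7 genes relative to the eGFP mean, was 0.42, -0.58, 0.40 and -0.25 in eGFP 1 to 4 and -0.21, -0.17, -0.14 and -0.41 in Lpcat3 1 to 4. All Lpcat3 values lay inside the eGFP range, and the difference of the means, -0.23, was smaller than the eGFP SD of 0.49. Left out in turn, eGFP 1 moved the difference to -0.092, eGFP 3 to -0.097 and eGFP 2 to -0.42. It was -0.29 within codes 1290 and 1317 and 0.0074 within codes 1344 and 1345, and the median turned to 0.16 when only genes with 1 CPM in 4 libraries were kept and Cd4, Cd27 and Zap70 remained.

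**Figure D2:**
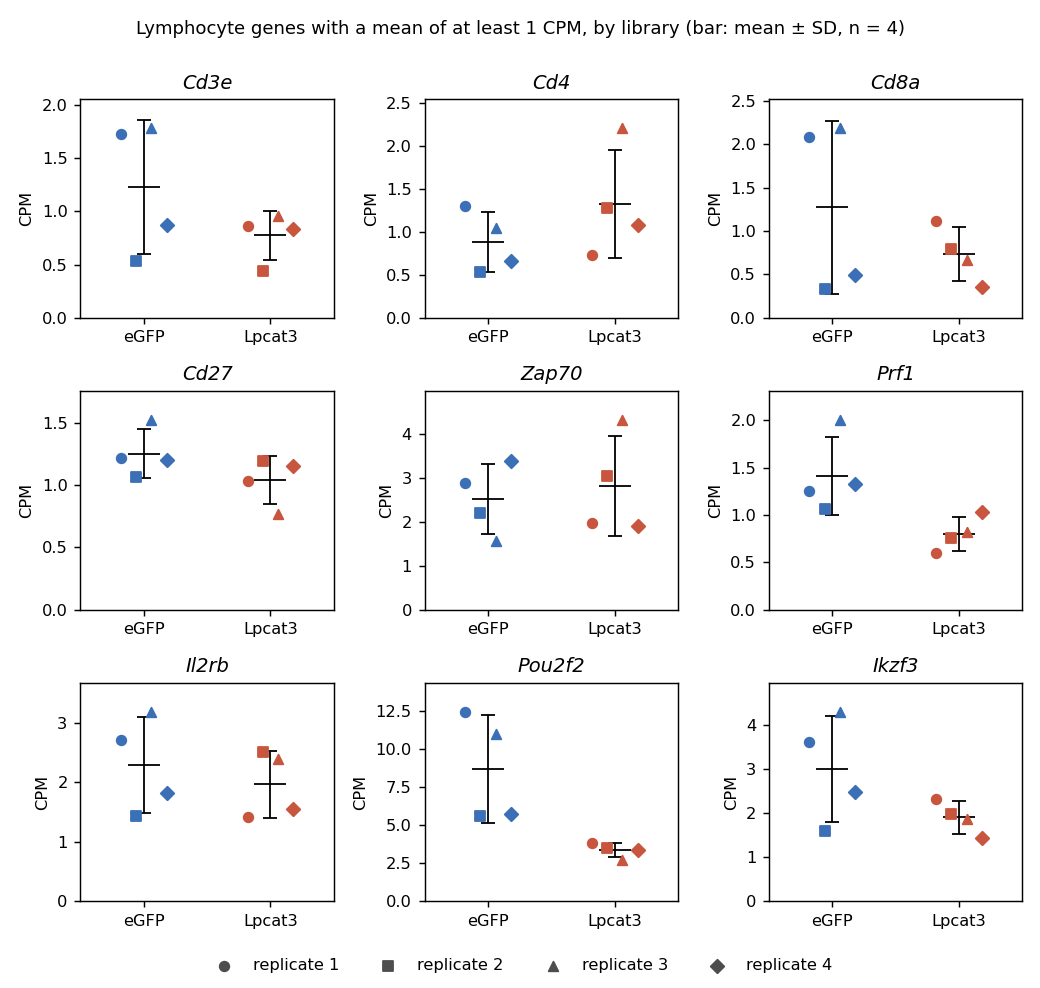
CPM (TMM-scaled) of the 9 lymphocyte genes with a mean of at least 1 CPM, in 4 eGFP and 4 Lpcat3 libraries; symbols mark the replicate number and bars the mean ± SD (n = 4). Only Prf1 and Pou2f2 show no overlap, and in each gene but Prf1 and Zap70 both eGFP 1 and eGFP 3 lie above eGFP 2 and eGFP 4.

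Among killing genes, perforin was lower in every Lpcat3 library and the granzymes were near the limit of counting. Prf1, which encodes the pore-forming protein perforin, was at 1.26, 1.06, 2.01 and 1.32 CPM in the eGFP group and at 0.603, 0.751, 0.815 and 1.03 CPM in the Lpcat3 group. The highest Lpcat3 library, 1.03 CPM from 26 counts, lay just below the lowest eGFP library, 1.06 CPM also from 26 counts. The gene was 1.76-fold lower (log2 fold change -0.81, SE 0.27; edgeR adjusted p = 0.564, DESeq2 adjusted p = 0.423). Within codes 1290 and 1317 the log2 difference was -1.11 and within codes 1344 and 1345 it was -0.58. Gzmb, granzyme B, ranged from 0.330 to 1.23 CPM in the eGFP group and from 0.0398 to 0.732 CPM in the Lpcat3 group, where Lpcat3 4 held 1 count (log2 fold change -0.71, SE 0.61; edgeR adjusted p = 0.718). Its fold change was -0.31 without Lpcat3 4, -0.32 without eGFP 3, -1.07 without Lpcat3 1 and -0.11 in the fit with the code division. Gzma, granzyme A, had means of 0.313 and 0.242 CPM in the eGFP and Lpcat3 groups.

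Nkg7, a protein of cytotoxic granules, was at 1.69, 0.449, 1.19 and 0.454 CPM in the eGFP group and at 0.646, 0.751, 0.336 and 0.239 CPM in the Lpcat3 group. It repeated the split of Cd8a, with eGFP 1 and 3 high and eGFP 2 and 4 inside the Lpcat3 range (log2 fold change -0.94, SE 0.52; edgeR adjusted p = 0.631; -0.51 without eGFP 1). Il2rb, the shared beta chain of the IL-2 and IL-15 receptors, was at 2.71, 1.43, 3.19 and 1.82 CPM against 1.42, 2.52, 2.40 and 1.55 CPM. Its groups overlapped (log2 fold change -0.22, SE 0.30; edgeR adjusted p = 0.821; -0.020 without eGFP 3).

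Receptors that mark NK cells had nearly equal means. Klrb1c, the NK1.1 antigen in C57BL/6 mice, had means of 0.506 ± 0.158 CPM in the eGFP group and 0.533 ± 0.0842 CPM in the Lpcat3 group (SD, n = 4 each; log2 fold change 0.08, SE 0.29; edgeR adjusted p = 0.941), and its sign turned to -0.038 on library totals. Ncr1, the activating receptor NKp46, had means of 0.398 ± 0.220 and 0.387 ± 0.182 CPM (log2 fold change -0.04, SE 0.49; edgeR adjusted p = 0.980). The chemokine gene Xcl1 ranged from 0 to 0.197 CPM in the eGFP group and from 0.0479 to 0.486 CPM in the Lpcat3 group, with 32 counts in all.

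Of the 6 tested NK and cytotoxic genes, 5 had a negative log2 fold change (4 to 6 in the alternatives that kept all 6), with a median of -0.47. The score was 0.26, -0.30, 0.52 and -0.48 in eGFP 1 to 4 and -0.16, -0.16, -0.45 and -0.81 in Lpcat3 1 to 4. Its difference, -0.39, was smaller than the eGFP SD of 0.47, and only Lpcat3 4 lay below the eGFP range. The difference was -0.32 within codes 1290 and 1317 and 0.013 within codes 1344 and 1345. Without eGFP 3 it was -0.22 and without Lpcat3 4 it was -0.25.

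Ptprcap, a small protein bound to CD45 in lymphocytes, was at 0.904, 0.572, 0.668 and 0.537 CPM in the eGFP group and at 0.516, 0.839, 0.911 and 0.637 CPM in the Lpcat3 group. The groups overlapped fully (log2 fold change 0.11, SE 0.28; edgeR adjusted p = 0.912). The score difference was 0.10, with -0.39 within codes 1290 and 1317 and 0.49 within codes 1344 and 1345. On library totals the fold change turned to -0.031.

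The widest separation among the tested members was that of Pou2f2, 1 of the B and plasma cell genes. Pou2f2, which encodes the octamer-binding factor Oct-2 of B cells and is also expressed in macrophages, was at 12.5, 5.64, 11.0 and 5.78 CPM in eGFP 1 to 4 and at 3.83, 3.49, 2.73 and 3.38 CPM in Lpcat3 1 to 4. All 4 Lpcat3 libraries lay below all 4 eGFP libraries, while eGFP 1 and 3 were again the high pair. The mean was 8.73 ± 3.54 CPM in the eGFP group and 3.36 ± 0.459 CPM in the Lpcat3 group (SD, n = 4 each), from 57 to 318 counts per library. The log2 fold change was -1.38 (SE 0.28; edgeR adjusted p = 0.564), which did not pass, while DESeq2 gave -1.37 with an adjusted p of 0.00185. Within codes 1290 and 1317 the log2 difference was -1.24, and within codes 1344 and 1345 it was -0.84.

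Ikzf3, which encodes the transcription factor Aiolos of B cells and other lymphocytes, was at 3.62, 1.59, 4.31 and 2.48 CPM in the eGFP group and at 2.32, 1.99, 1.87 and 1.43 CPM in the Lpcat3 group. Here eGFP 2 lay inside the Lpcat3 range, and the log2 fold change was -0.66 (SE 0.30; edgeR adjusted p = 0.591), or -0.43 without eGFP 3. Pou2af1, the coactivator that binds Oct-2 and its relative Oct-1, had means of 0.636 ± 0.188 and 0.466 ± 0.122 CPM (SD, n = 4 each; log2 fold change -0.45, SE 0.31; edgeR adjusted p = 0.669; -0.27 without eGFP 3).

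The signalling chains of the B cell receptor and the B cell antigen CD20 had means under 1 CPM and overlapping groups. Cd79a, one of the 2 chains, ranged from 0.409 to 0.943 CPM in the eGFP group and from 0.442 to 0.732 CPM in the Lpcat3 group (log2 fold change -0.08, SE 0.31; edgeR adjusted p = 0.938). Its partner Cd79b ranged from 0.449 to 1.14 CPM and from 0.144 to 1.03 CPM (log2 fold change -0.55, SE 0.50; edgeR adjusted p = 0.735; -0.25 without Lpcat3 3, -0.999 without Lpcat3 1). Ms4a1, the CD20 antigen, ranged from 0.631 to 0.940 CPM and from 0.279 to 0.972 CPM (log2 fold change -0.43, SE 0.35; edgeR adjusted p = 0.703; -0.19 without Lpcat3 4, -0.79 without Lpcat3 2).

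Of the plasma cell genes, Jchain, the joining chain of secreted IgA and IgM, had means of 0.956 ± 0.265 and 0.707 ± 0.247 CPM in the eGFP and Lpcat3 groups (SD, n = 4 each; log2 fold change -0.42, SE 0.32; edgeR adjusted p = 0.684; -0.23 without Lpcat3 3, -0.26 without eGFP 1). Mzb1, a chaperone of antibody assembly, was close to 0, with 13 counts over all libraries, at most 3 in any library, and means of 0.0690 and 0.0680 CPM in the eGFP and Lpcat3 groups. At 0.0758 CPM per kb it had the lowest level of the 29 members.

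All 7 tested B and plasma cell genes had a negative log2 fold change, with a median of -0.45. The score was 0.36, -0.43, 0.23 and -0.16 in eGFP 1 to 4 and -0.24, -0.48, -0.88 and -0.57 in Lpcat3 1 to 4. Its difference of -0.54 was larger than the SD of either group (0.36 and 0.26), and eGFP 2 lay among the Lpcat3 libraries. The difference was -0.30 within codes 1290 and 1317, where Lpcat3 1 is the only Lpcat3 library. Within codes 1344 and 1345, where eGFP 4 is the only eGFP library, it was -0.48. With the number of B genes reduced to the 2 of at least 1 CPM, Pou2f2 and Ikzf3, the difference was -0.92. In the fit with every code number as its own term 4 of the 7 genes were negative. Pou2f2 supplied most of the difference in summed level: the 8 genes came to 15.7 ± 5.36 CPM in the eGFP group and 8.30 ± 1.21 CPM in the Lpcat3 group, and the 7 without Pou2f2 to 6.97 ± 1.92 and 4.94 ± 0.783 CPM (SD, n = 4 each). Without Pou2f2 the groups overlapped, at 4.62 to 8.61 CPM in the eGFP group and 4.17 to 5.94 CPM in the Lpcat3 group. In log2 fold change Pou2f2 was at -1.38 and the other tested B and plasma cell genes at -0.66 to -0.08. No score was computed without Pou2f2.

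**Figure D3:**
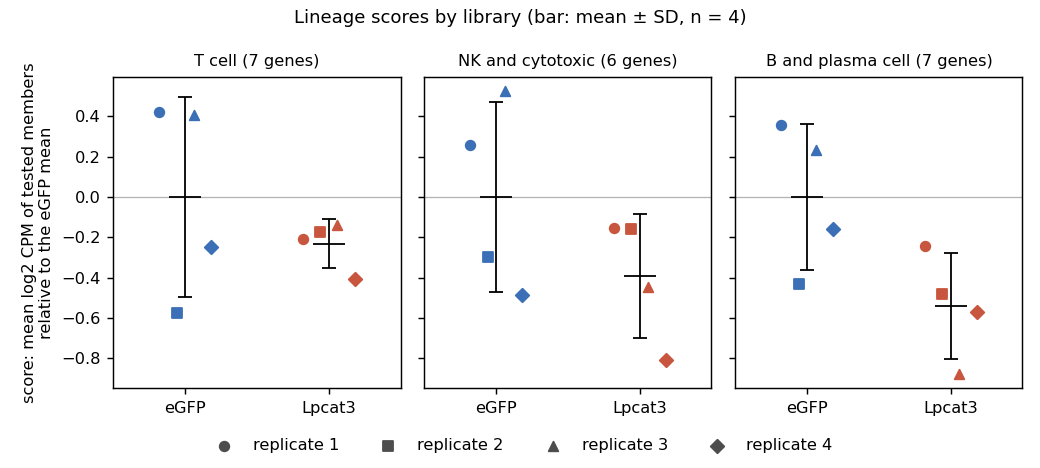
Score of each lineage (mean log2 CPM of its tested members relative to the eGFP mean, prior count 2) in each library, with symbols for the replicate number and bars for the mean ± SD (n = 4). The T cell and NK scores of eGFP 1 and 3 lie above all Lpcat3 libraries while eGFP 2 and 4 do not, and the B cell scores of the Lpcat3 group run from -0.88 to -0.24.

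Without both libraries numbered 3 the score differences were -0.13 for T cell, -0.20 for NK and cytotoxic and -0.35 for B and plasma cell genes, and the log2 fold changes of Pou2f2 and Prf1 were -1.16 and -0.60.

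A split within the control group ran through the members. In 23 of the 29 (79.3%) both eGFP 1 and eGFP 3 were above both eGFP 2 and eGFP 4, against 25.3% of the 17438 tested genes; this ordering was chosen after the values were seen. It held for 11 of 12 T cell genes, 6 of 8 NK and cytotoxic genes, 5 of 8 B and plasma cell genes and Ptprcap. The SD of CPM over libraries was larger in the eGFP group than in the Lpcat3 group for 22 of 29 members (75.9%), against 56.8% of all tested genes. An SD of CPM depends on the mean level too, and 23 of the 29 members had the lower mean in the Lpcat3 group. The 29 members include the 8 untested ones, while the shares of all genes cover tested genes only. Of the eGFP libraries, 1 and 2 carry code 1290, 3 carries 1317 and 4 carries 1345. The part of the codes in this split was not tested.

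Other genes listed as markers of the same cells also had no call in edgeR. Whether their reads came from lymphocytes was not tested. Of 19 tested further T cell genes 15 had a negative log2 fold change, with a median of -0.38. The 3 with the smallest p were Lcp2, a signalling adaptor that myeloid cells also carry (log2 fold change -0.69, SE 0.20), Trac, the constant region of the T cell receptor alpha chain (-0.93, SE 0.32), and Thy1, a surface antigen of mouse T cells (-0.86, SE 0.40). Trac was at 1.26, 0.572, 1.56 and 0.909 CPM in the eGFP group and at 0.603, 0.574, 0.527 and 0.557 CPM in the Lpcat3 group. Its Lpcat3 libraries were close together, and eGFP 2 lay among them (edgeR adjusted p = 0.564). Themis and Tox, genes of this list named after their values were seen, had means of 40.6 and 12.4 CPM in the eGFP group and of 44.0 and 16.4 CPM in the Lpcat3 group. Per kilobase they stood at 8.32 and 3.63 CPM per kb, above the 0.684 of Cd3e. Both are among the 19 genes counted above, and whether T cells were the source of their reads was not tested.

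Of 9 tested further NK and cytotoxic genes 7 were negative, with a median of -0.42. They were led by the chemokine gene Ccl5 (log2 fold change -1.06, SE 0.46), the receptor gene Cd244a (-0.77, SE 0.39) and the NKG2D gene Klrk1 (-0.50, SE 0.26), with edgeR adjusted p-values of 0.587, 0.616 and 0.625. Ccl5 was at 2.24, 0.572, 1.37 and 0.826 CPM against 0.775, 0.795, 0.527 and 0.318 CPM, and eGFP 2 was again inside the Lpcat3 range.

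Of 21 tested further B and plasma cell genes 18 were negative, with a median of -0.20. Cr2, the complement receptor of B cells and follicular dendritic cells, was at 2.75, 2.37, 2.86 and 2.85 CPM in the eGFP group and at 1.94, 1.86, 1.73 and 1.63 CPM in the Lpcat3 group. Its groups did not overlap and eGFP 1 and 3 did not stand out (log2 fold change -0.60, SE 0.15; edgeR adjusted p = 0.564). Ighd, an antibody heavy chain named after its values were seen, was the other gene of the list whose groups did not overlap, at 1.28 to 1.47 CPM against 0.676 to 1.21 CPM. Bank1, a scaffold of B cell receptor signalling, had a log2 fold change of -0.62 (SE 0.22), and Prdm1, which encodes the plasma cell regulator Blimp-1, one of -0.81 (SE 0.32). The antibody chains Ighm and Igkc, named after their values were seen, had log2 fold changes of -0.06 (SE 0.23) and 0.09 (SE 0.47), and both overlapped between the groups. Sdc1, named in the same way, had means of 99.5 CPM in the eGFP group and 118 CPM in the Lpcat3 group. Per kilobase it stood at 34.4 CPM per kb, against 0.461 for Cd79a. It is counted among the 21 genes, and whether plasma cells were the source of its reads was not tested.

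Signals that attract or sustain lymphocytes had a median log2 fold change of -0.14, with 11 of 15 tested genes negative and none called. Il15, the cytokine that sustains NK and memory CD8 T cells, was at 4.36, 4.41, 4.08 and 3.39 CPM in the eGFP group and at 3.44, 3.05, 2.59 and 3.06 CPM in the Lpcat3 group. Only Lpcat3 1 reached the eGFP range, and the log2 fold change was -0.42 (SE 0.15; edgeR adjusted p = 0.565). Cxcl16, a chemokine for T and NKT cells, and Icam1, an adhesion molecule that lymphocytes bind, had log2 fold changes of -0.49 (SE 0.18) and -0.42 (SE 0.20).

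Markers of leukocytes in general and of macrophages were also lower on average in the Lpcat3 group. All 12 markers of leukocytes in general had a negative log2 fold change, with a median of -0.66, and their summed level was 312 to 540 CPM in the eGFP group and 253 to 334 CPM in the Lpcat3 group. Ptprc, which encodes CD45, was at 74.3, 39.9, 82.9 and 37.5 CPM against 43.4, 34.7, 24.4 and 31.7 CPM, with the same high pair in eGFP 1 and 3 (log2 fold change -0.81, SE 0.28; edgeR adjusted p = 0.565). Of 12 macrophage markers 11 were negative, with a median of -0.57 and a summed level of 627 to 986 CPM against 474 to 625 CPM. The macrophage genes Adgre1, a surface antigen of mouse macrophages, and Cd5l, a secreted protein of Kupffer cells, had log2 fold changes of -0.96 (SE 0.27) and -0.88 (SE 0.23). No leukocyte or macrophage marker was at 0 in all libraries. The part of these cells in the values of Pou2f2 and the other members was not tested.

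Of the remaining lists, the 3 tested neutrophil genes of 10 had a median log2 fold change of -0.94, 10 dendritic cell genes -0.28 (7 negative), 7 endothelial genes -0.24 (7 negative), 8 stellate cell and fibroblast genes -0.06 (5 negative) and 5 red cell genes -0.19 (4 negative). The 10 hepatocyte genes had a median of 0.30, none negative, and 6 cholangiocyte genes one of 0.63, with 1 negative. Of 7 pancreas genes 1 was tested. Prss2 and Pnlip, named after their values were seen, were at 0 in all libraries. None of these genes was called by edgeR, and their part in the lymphocyte values was not tested.

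**Figure D4:**
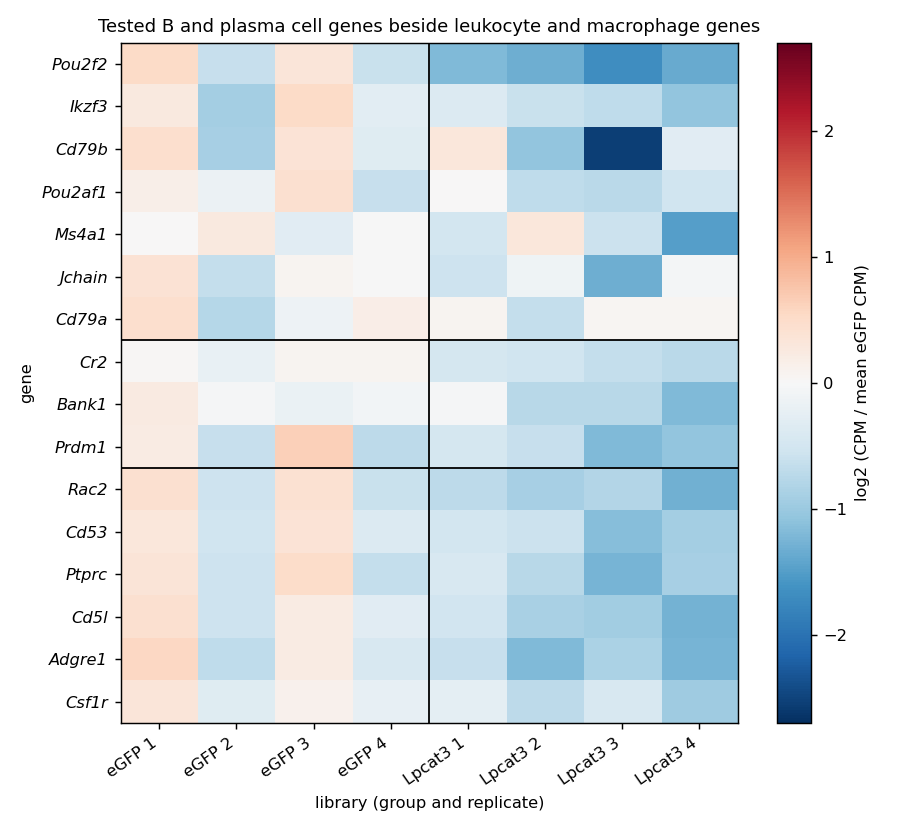
Level in each library of the 7 tested B and plasma cell members (top), of the 3 further B cell genes with the smallest p (middle) and of 3 leukocyte and 3 macrophage genes (bottom), as log2 of CPM over the eGFP mean (blue below it, red above it). In Pou2f2, Ikzf3, Cd79b, Pou2af1, Jchain, Prdm1 and the 6 genes at the bottom both eGFP 1 and eGFP 3 are above eGFP 2 and eGFP 4, and in Ms4a1, Cd79a, Cr2 and Bank1 they are not.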

How the data were processed

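The authors deposited 1 table of raw counts per gene, named by NCBI gene numbers, for 4 eGFP and 4 Lpcat3 liver libraries. Per the labels' protocols, ribosomal RNA was removed and stranded single-end libraries of 101 cycles were sequenced. The submitters' processing notes name the build GRCm39, bcl2fastq 2.20 and DESeq2. Aligner, counter and strand setting were not given in the sources used here, so reads of overlapping or antisense genes cannot be told apart.

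Symbols came from an NCBI RefSeq table of GRCm38.p6, which matched 39397 of 40838 rows, and promoters came from RefSeq of the same build. Counts were filtered with filterByExpr (minimum count 10), scaled by TMM and compared with edgeR 4.0.16 (R 4.3.3; robust quasi-likelihood test, group as the only term, two-sided, Benjamini-Hochberg over 17438 genes, threshold 0.05). The SE of a log2 fold change is its size over the square root of the F statistic. Scores used log2 CPM with a prior count of 2 and carry no test. Levels per kilobase used the longest protein-coding transcript of the reference annotation. The edgeR fit was run on simulated counts with known fold changes, set in genes drawn from all tested genes. That run does not show how often members at these low levels would be called.

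Per-library values are given for members with a mean of at least 1 CPM and for the 2 members of each lineage with the smallest p, and up to 3 genes by p are named from each other list, some with their library values. Genes of the other lists outside this rule are said to be named after their values were seen. The members and lists were chosen with earlier results of these data known. Replicate numbers were not used as pairs: of libraries with the same number, the correlations of their deviations from the group means were 0.28, -0.07, -0.40 and -0.12. Results were recomputed with 2 other scalings and 2 other filters, with DESeq2 1.42.0 and limma-voom (limma 3.58.1), and with a fit without robust estimation, a replicate block, the code numbers, and libraries left out.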

Additional observations from a re-analysis of the deposited data

Results flagged for a closer look

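Cd79a, the B cell receptor chain, was at 0.442 CPM in Lpcat3 2, while the other Lpcat3 libraries lay at 0.716 to 0.732 CPM. The counts were 10 in Lpcat3 2 and 17, 15 and 18 in Lpcat3 1, 3 and 4. The exact Poisson 95% interval of the 10 counts, 4.80 to 18.4, takes in the other counts. The gap was 0.946 of the group's range, above Dixon's critical value of 0.829 for 4 samples. It was the 1 value that stood apart among 64 groups of 4 examined (members and lineage scores in either group), and chance alone marks about 1 in 20 groups.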

How the results depend on the processing

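No alternative in edgeR or limma-voom called a member, and DESeq2 called 1 (Pou2f2). Pou2f2 kept a negative log2 fold change in every alternative run, at -1.54 to -1.15 with 1 library left out, and with the replicate block it was -1.30 (adjusted p 0.572). With genes of at least 1 CPM in 4 libraries, the median log2 fold change turned to 0.16 over 3 T cell genes and was -1.02 over 2 B cell genes, and the B cell score difference from members of at least 1 CPM only was -0.92. Within codes 1344 and 1345 the NK score difference was 0.013. The score difference of Ptprcap was -0.39 within codes 1290 and 1317 and 0.49 within the others. With 1 library left out, medians ran from -0.70 to -0.28 (T), -0.62 to -0.17 (NK), -0.64 to -0.37 (B) and -0.018 to 0.28 (Ptprcap), and score differences from -0.42 to -0.092, -0.55 to -0.22, -0.69 to -0.42 and -0.010 to 0.24. The signs of 7 uncalled members turned. Zap70 was at -0.0054 with limma-voom, -0.15 with the code division as a term, -0.56 with each code number as a covariate, -0.29 without both libraries numbered 3 and -0.12 to 0.34 with 1 library left out. Ncr1 was at 0.16, 0.49, 0.73, 0.58 and -0.29 to 0.33 in the same settings and 0.0055 with the replicate block. Klrb1c was at -0.038 on library totals and -0.028 to 0.31 with 1 library left out. Ptprcap was at -0.031 on library totals, -0.18 with each code and -0.021 without both libraries numbered 3. Cd79a, Cd79b and Pou2af1 were at 0.0033, 0.24 and 0.038 with each code, and Cd79a at -0.26 to 0.10 with 1 library left out. The cause of these changes was not tested. In the fit with each code, only codes 1290 and 1345 inform the group difference, since the others hold 1 group. Low counts limit the precision: 20 of 29 members had a mean under 1 CPM.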
